A study of Homo sapiens with 6 samples.

Results

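Caveolae are small flask-shaped pits of the plasma membrane. Their coat is built from caveolins, hairpin membrane proteins that bind cholesterol, and from cavins, cytosolic coiled-coil proteins that assemble into a peripheral layer, while the ATPase EHD2 sits at the neck and holds the pit at the surface. Caveolae are abundant in endothelium, adipocytes and muscle and sparse in normal hepatocytes, buffer membrane tension, and are one route by which TGF-β receptors enter cells.

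The 6 genes described here encode that coat in most cell types: the caveolins CAV1 and CAV2, the cavins CAVIN1, CAVIN2 and CAVIN3, and EHD2. They were chosen by name, with their levels and their changes in these libraries already known, so both are given below as descriptions without a p-value. All 6 were found among the 22091 gene IDs of the files, and all 6 were among the 14176 genes that passed the filter on low counts.

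RNA was sequenced from human hepatocellular carcinoma cell lines given TGF-β1 ligand at 2.5 ng/mL over 4 h and from the same lines without ligand, all grown in DMEM with fetal bovine serum. The lines were MHCC97L, MHCC97H and HCCLM3. They share one origin: MHCC97L and MHCC97H are sublines of one parental line that spread less and more readily in mice, and HCCLM3 was in turn selected from MHCC97H through metastases in the lung. There was 1 library for each line and condition, 6 in all, so within a line nothing measures the spread between cultures. A fit over the 3 lines draws its error from how the response varied from line to line. It also borrows from the variation of all genes. Its standard errors (SE) are therefore not the spread of a single gene between lines.

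Libraries held 18485041 to 23242862 expected counts, and HCCLM3 differed from the other lines in far more genes than those lines did from each other. Among the hepatocyte and hepatoma markers only the keratin genes were high (KRT8 at 4744 to 6571 CPM with TGF-β1 and 4294 to 5251 CPM in controls). Genes of secreted liver proteins were far lower, and several varied between lines. ALB was at 1.26 to 22.5 CPM with TGF-β1 and 1.43 to 22.9 CPM in controls, and TTR was below 1 CPM in all 6 libraries. SERPINA1 was at 114, 49.1 and 0.969 CPM in MHCC97L, MHCC97H and HCCLM3 with TGF-β1, against 54.2, 28.6 and 0.850 CPM in their controls. EPCAM, an epithelial adhesion gene, was below 1 CPM in all 6 libraries. CPM, the expected count as a share of the library's total in parts per 1000000, was scaled by the trimmed mean of M values (TMM). Marker lists of adipocytes summed to 0.524 to 0.762 CPM with TGF-β1 and 0.392 to 0.631 CPM in controls. The 8 markers of stellate cells and fibroblasts summed to 12.6 to 33.5 CPM with TGF-β1 and 10.8 to 34.4 CPM in controls, and 5 of them were below 1 CPM in all libraries. Of the others, LUM was at 10.4 to 17.7 CPM with TGF-β1 and 9.27 to 16.9 CPM in controls, and COL3A1 in HCCLM3 was at 11.7 CPM with TGF-β1 and 14.4 CPM in the control. Of 5 leukocyte markers 3 were below 1 CPM in all libraries. CD68, which tumour cell lysosomes also hold, made up most of the leukocyte sum of 113 to 250.9 CPM with TGF-β1 and 128 to 220.5 CPM in controls.

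Because CAVIN2 changed most among these genes, its promoter is shown beside that of EHD2, a gene that changed little and holds as many of the short boxes that SMAD proteins bind. Both are RefSeq sequences of GRCh38.p14, matched by symbol as were those of CAV1 and CAV2, and run from 250 bases before to 50 bases after the gene's RefSeq start. The CAVIN2 window is chr2:191847039-191847338 on the minus strand and the EHD2 window is chr19:47713172-47713471 on the plus strand. Capitals mark the SMAD box CAGAC or its reverse complement GTCTG, and the TEAD motif CATTCC or its reverse complement GGAATG.
CAVIN2: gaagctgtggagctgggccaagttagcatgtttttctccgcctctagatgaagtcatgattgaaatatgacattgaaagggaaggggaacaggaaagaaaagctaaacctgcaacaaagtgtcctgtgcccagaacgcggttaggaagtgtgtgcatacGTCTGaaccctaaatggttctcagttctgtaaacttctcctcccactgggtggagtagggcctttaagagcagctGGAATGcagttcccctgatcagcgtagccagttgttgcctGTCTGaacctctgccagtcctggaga
EHD2: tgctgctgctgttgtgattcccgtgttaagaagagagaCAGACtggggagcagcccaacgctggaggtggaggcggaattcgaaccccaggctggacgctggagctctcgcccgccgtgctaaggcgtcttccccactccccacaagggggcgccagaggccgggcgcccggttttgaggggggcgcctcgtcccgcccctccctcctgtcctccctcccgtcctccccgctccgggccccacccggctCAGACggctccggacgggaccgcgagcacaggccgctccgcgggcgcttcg
The CAVIN2 window holds 2 SMAD boxes, at -91 and +25 from the start, and 1 TEAD motif at -16. The EHD2 window holds 2 SMAD boxes, at -212 and -1, and no TEAD motif. At least 1 SMAD box occurs in 45.3% of 35116 such windows and at least 2 in 13.1%, and a TEAD motif occurs in 14.0%. The AP-1 motif TGANTCA, searched in the same way and present in 7.71% of windows, was in none of the windows of these 4 genes. CAVIN1 and CAVIN3 had no window in the source used, so the genes that rose were not searched. The matches of different motifs did not overlap. CAV1 and CAV2 have several RefSeq starts, and 1 of the 3 CAV1 windows and 1 of the 2 CAV2 windows hold a single SMAD box. The CAVIN2 window has 49.3% G and C with 5 CpG dinucleotides, against 71.0% and 30 in EHD2. The median over all windows is 58.7% and 14. These are matches of letters, and nothing here measures binding.

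Caveolin mRNA was among the most abundant in every library. CAV1 (ENSG00000105974.11, hg38 chromosome 7, 116524785 to 116561184, plus strand) encodes the caveolin that is needed for caveolae to form. It held 0.803%, 0.549% and 0.753% of all counts in MHCC97L, MHCC97H and HCCLM3 with TGF-β1, against 0.893%, 0.614% and 0.715% in their controls, and ranked between place 5 and place 10 among all genes by CPM. CAV2 (ENSG00000105971.14, chromosome 7, 116287380 to 116508541, plus strand), which encodes the caveolin that pairs with CAV1, ends 16244 bp before CAV1 starts and ranked between place 10 and place 15.

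Per kilobase of exon, the scale on which genes can be compared, the mean levels fell into an order. Over the 6 libraries CAV1 averaged 1769 CPM per kb (range 1344 to 2175) and CAV2 790 (674 to 927). CAVIN1 (ENSG00000177469.12, chromosome 17, 42402452 to 42423517, minus strand), which encodes the cavin that caveolae require, averaged 154 CPM per kb (111 to 182). EHD2 (ENSG00000024422.11, chromosome 19, 47713343 to 47743134, plus strand) averaged 55.4 CPM per kb (48.2 to 66.2) and CAVIN3 (ENSG00000170955.9, chromosome 11, 6318946 to 6320647, minus strand) 38.5 CPM per kb (27.1 to 47.3). CAVIN2 (ENSG00000168497.4, chromosome 2, 191834302 to 191847255, minus strand), a cavin that helps membranes to curve, came last at 5.67 CPM per kb (0.84 to 11.4). With this length no 2 neighbours in the order had overlapping ranges, although EHD2 and CAVIN3 nearly met. With the longest transcript in place of all exons the order of the means held, but the separation did not. CAV1 and CAV2 were then at 2256 and 1657 CPM per kb, and EHD2 and CAVIN3 at 60.6 and 54.9. The ranges overlapped within each of these pairs.

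**Figure D1:**
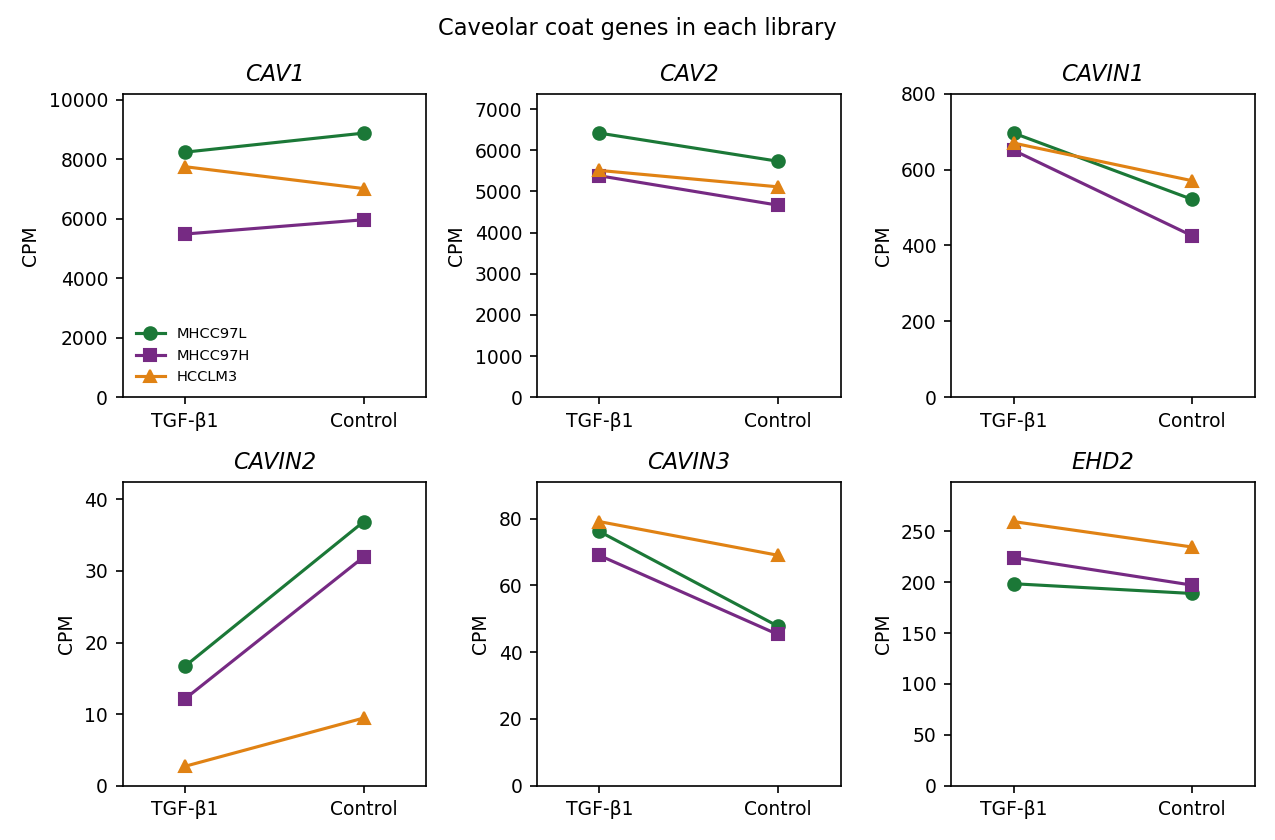
CPM (linear axis from 0) of each caveolar coat gene with TGF-β1 and in the control, 1 point per library, with a line joining the libraries of a cell line. CAVIN2 is lower with TGF-β1 in all 3 lines, CAVIN1 and CAVIN3 are higher in all 3, and CAV1 is higher in HCCLM3 only.

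The main question is how the coat genes stood after 4 h of TGF-β1. The cavins went in opposite directions: CAVIN2 fell and CAVIN1 and CAVIN3 rose, each in the same direction in 3 of 3 lines. The caveolins and EHD2 differed less from their controls, at most by 1.153-fold, in CAV2 of MHCC97H. Of the 6 genes, 3 passed an adjusted p of 0.05 in edgeR's quasi-likelihood test, against 14.4% of all 14176 genes tested. In the upward direction 2 passed, against 7.78% of all genes, and downward 1 passed, against 6.64%. The split of all called genes was 1103 higher and 941 lower with TMM scaling, and 806 higher and 1366 lower with library totals. Since these changes were known when the genes were listed, the counts are not evidence about the group. In bulk RNA, fewer cells that express a gene and less of its RNA per cell cannot be told apart.

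CAVIN2 had 16.7, 12.2 and 2.71 CPM in MHCC97L, MHCC97H and HCCLM3 with TGF-β1, against 36.9, 32.0 and 9.45 CPM in their controls. Each treated library lay below its own control, but the conditions overlapped, since the HCCLM3 control was lower than the treated libraries of the other lines. The levels were 2.21-fold lower with TGF-β1 in MHCC97L, 2.63-fold lower in MHCC97H and 3.49-fold lower in HCCLM3. On the log2 scale these are changes of -1.14 (95% exact binomial counting interval -1.32 to -0.97), -1.39 (-1.60 to -1.19) and -1.80 (-2.26 to -1.36). The HCCLM3 interval is the widest because the treated library held only 56 counts, against 178 in its control, and it overlaps that of MHCC97H but not that of MHCC97L. Whether the lines differed in this change was not tested, with 1 library for each line and condition. The fit over the 3 lines gave -1.38 (SE 0.122), and of the 14176 genes tested 35 had a more negative change. CAVIN2 still passed the threshold when each line was left out in turn, but no coat gene passed with no line as a block. Each coat gene was listed with its change known, so passing or not passing, here and below, is not a test of it.

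Endothelium is the cell type best known for CAVIN2, and its marker list was checked beside this result. The 8 markers summed to 11.2 to 35.5 CPM with TGF-β1 and 14.0 to 41.4 CPM in controls, most of it PECAM1 and KDR, with VWF at 1.07 to 3.51 CPM with TGF-β1 and 1.22 to 3.70 CPM in controls. PECAM1 was at 24.0, 22.5 and 5.91 CPM in MHCC97L, MHCC97H and HCCLM3 with TGF-β1, against 27.6, 31.0 and 8.65 CPM in their controls, lower with ligand in each line and lowest in HCCLM3, as CAVIN2 was. KDR and VWF were also lowest in HCCLM3 in both conditions, but neither was lower with ligand in each line. KDR was at 5.11, 10.5 and 2.52 CPM in the same lines with TGF-β1, against 4.79, 8.29 and 3.29 CPM in the controls. VWF was at 3.51, 1.93 and 1.07 CPM with TGF-β1, against 3.70, 1.24 and 1.22 CPM in the controls. TEK was highest in HCCLM3, at 1.501 CPM with TGF-β1 and 0.690 CPM in the control. The defining endothelial genes CDH5 and TIE1 were at 0.348 CPM or less and 0.0531 CPM or less in every library. The part of such cells in the CAVIN2 result was not tested.

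CAVIN1 had 696, 651 and 670 CPM in MHCC97L, MHCC97H and HCCLM3 with TGF-β1, against 521, 425 and 571 CPM in their controls. All 3 treated libraries lay above all 3 controls. The changes were 0.42 (0.38 to 0.45), 0.61 (0.58 to 0.65) and 0.23 (0.20 to 0.27), which is 1.33-fold, 1.53-fold and 1.17-fold. The treated libraries were closer to each other (672 ± 22.9 CPM, SD, n = 3) than the controls were (506 ± 73.9 CPM, SD, n = 3). The fit gave 0.42 (SE 0.081). Without MHCC97L CAVIN1 no longer passed, which describes the fit and is not a test of the gene.

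CAVIN3, which encodes the cavin that binds protein kinase C delta, had 76.2, 69.0 and 79.1 CPM in MHCC97L, MHCC97H and HCCLM3 with TGF-β1, against 47.8, 45.3 and 69.0 CPM in their controls. The MHCC97H library with TGF-β1 and the HCCLM3 control were level at this precision, so the conditions just overlapped. The changes were 0.67 (0.56 to 0.78), 0.61 (0.49 to 0.72) and 0.20 (0.09 to 0.30), smallest in the line whose control was highest. The fit gave 0.49 (SE 0.098). CAVIN3 no longer passed without MHCC97L or without MHCC97H, which again is not a test of the gene.

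**Figure D2:**
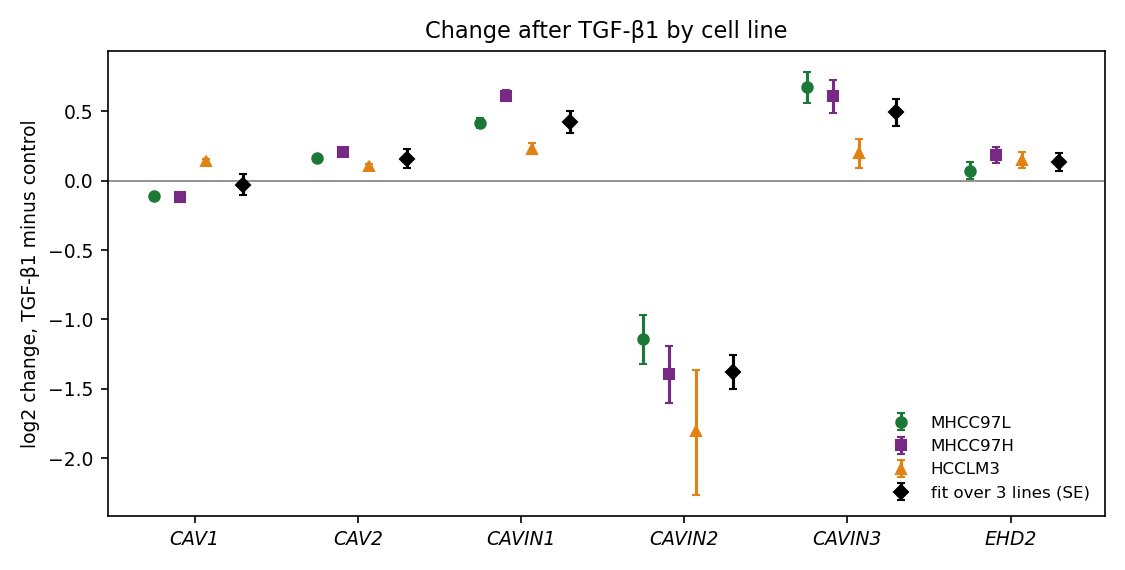
Log2 change with TGF-β1 relative to control for each gene. Coloured points are the 3 lines with 95% exact binomial intervals for counting error, and black diamonds are the edgeR fit over the lines with its standard error. CAVIN2 lies between -1.14 and -1.80 in the 3 lines, CAVIN1 and CAVIN3 lie above 0 in all 3, and CAV1 lies on both sides of 0.

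CAV1 had 8238, 5485 and 7748 CPM in MHCC97L, MHCC97H and HCCLM3 with TGF-β1, against 8878, 5965 and 7013 CPM in their controls. It was lower with ligand in the MHCC97 lines, by -0.11 (-0.12 to -0.10) and -0.12 (-0.13 to -0.11) on the log2 scale, and higher in HCCLM3, by 0.14 (0.13 to 0.15). CAV1 had 125219 to 204084 counts a library, so its counting error is tiny, and these intervals say nothing of variation between cultures. The fit gave -0.03 (SE 0.077) and CAV1 did not pass.

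CAV2 had 6419, 5382 and 5512 CPM in the same lines with TGF-β1, against 5735, 4667 and 5113 CPM in their controls. It was higher with ligand in each line, by 0.16, 0.21 and 0.11, and the fit gave 0.16 (SE 0.066), which did not pass. Over all exons, CAV1 to CAV2 per kilobase was 2.18 and 1.73 in MHCC97L and MHCC97H with TGF-β1, against 2.63 and 2.17 in their controls. In HCCLM3 the ratio was 2.39 with TGF-β1 and 2.33 in the control. With longest-transcript lengths these ratios would be lower. EHD2 had 199, 224 and 260 CPM with TGF-β1, against 189, 197 and 235 CPM in the controls. Its changes were 0.07, 0.19 and 0.15, and the fit gave 0.13 (SE 0.063), which did not pass. The counts of CAV2, CAVIN1 and EHD2 were not whole numbers, as arises when reads are divided between genes. All of the coat genes but CAVIN1 overlap another annotated gene, and none of the genes they overlap is among the IDs of the files. The overlap is on the opposite strand for CAV1, CAV2, CAVIN2 and CAVIN3 and on the same strand for CAV2 and EHD2. The labels do not say whether strand was kept, so reads of these partners cannot be told apart from those of the coat genes.

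Within the cavin family the make-up shifted while the total grew. The summed level of the 3 cavins per kilobase was 233, 215 and 223 CPM per kb in MHCC97L, MHCC97H and HCCLM3 with TGF-β1, against 176, 148 and 193 in their controls. CAVIN2 made up 2.22%, 1.75% and 0.376% of that sum with TGF-β1, against 6.48%, 6.68% and 1.51% in the controls. There were 35.2, 45.2 and 208 units of CAVIN1 per unit of CAVIN2 with TGF-β1, against 11.9, 11.2 and 50.9 in the controls. CAVIN1 to CAVIN3 moved far less, at 3.99, 4.12 and 3.70 with TGF-β1 and 4.77, 4.10 and 3.61 in the controls. CAV1 to CAVIN1 was 11.1, 7.90 and 10.9 with TGF-β1, against 15.97, 13.2 and 11.5 in the controls, lower with ligand in each line. These ratios are built from the changes above and carry no separate evidence. They use all exons as the length. With longest-transcript lengths CAVIN1 to CAVIN3 and the CAVIN2 share would be lower and CAV1 to CAVIN1 higher.

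**Figure D3:**
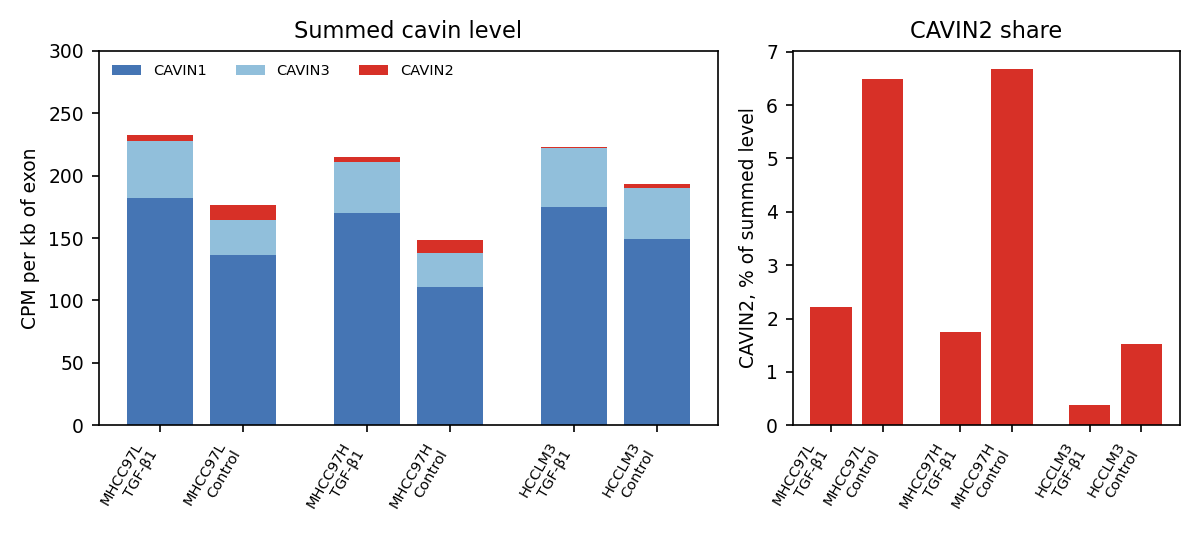
Left, the level of the 3 cavin genes stacked, in CPM per kb of exon, for each line with TGF-β1 and in the control. Right, the percentage of that sum that is CAVIN2. The CAVIN2 share is lower with TGF-β1 in each line and is at most 2.22% there, while the summed level is higher with TGF-β1 in each line.

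The lines also differed in their coat genes, most of all in CAVIN2. Averaged over both of its libraries, CAVIN2 was at 6.08 CPM in HCCLM3, against 26.8 CPM in MHCC97L and 22.1 CPM in MHCC97H. It was 6.16-fold lower in HCCLM3 than in MHCC97L with TGF-β1 and 3.90-fold lower in the controls, and 4.48-fold and 3.38-fold lower than in MHCC97H. The fit gave -2.22 (SE 0.159) for HCCLM3 minus MHCC97L and -1.90 (SE 0.160) for HCCLM3 minus MHCC97H on the log2 scale.

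The other 5 genes differed between lines by at most 1.52-fold within a condition, in CAVIN3 between the HCCLM3 and MHCC97H controls. CAV1 averaged 5725 CPM in MHCC97H, against 8558 CPM in MHCC97L, a difference of -0.58 (SE 0.094), and its libraries in these lines did not overlap. CAV1 in HCCLM3, at 7381 CPM, was 0.37 (SE 0.094) above MHCC97H and did not overlap it either. EHD2 averaged 247 CPM in HCCLM3, against 194 CPM in MHCC97L, a difference of 0.35 (SE 0.077) with no overlap. CAVIN3 averaged 74.1 CPM in HCCLM3, against 57.1 CPM in MHCC97H, a difference of 0.41 (SE 0.119) that came mainly from the controls, at 0.61, and less from the treated libraries, at 0.20. CAVIN1 differed by at most 0.23 in the fit for any pair of lines. For HCCLM3 against MHCC97L 2 of the 6 genes passed (CAVIN2 and EHD2) with 29.8% of all genes, for HCCLM3 against MHCC97H 3 passed (CAV1, CAVIN2 and CAVIN3) with 27.2%, and for MHCC97H against MHCC97L 1 passed (CAV1) with 2.45%. The levels in each line were known when the genes were listed, so nothing is read from these counts. A line has 2 libraries that differ in treatment, so its spread includes the response to ligand.

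Other genes of the caveolar system and of its clathrin counterpart, which were not used to list the coat genes, were tested over all genes. Of 43 such genes 37 passed the filter, and of these 5 rose and 1 fell, which is 16.2%, close to the 14.4% of all genes. The median change was 0.06, and -0.003 over all genes tested. The muscle forms CAV3 and CAVIN4 were too low to test: CAV3 had 0 to 2 counts in the TGF-β1 libraries and 1 to 7 in the controls, and CAVIN4 was at 0.269 to 0.666 CPM with TGF-β1 and 0.363 to 0.684 CPM in controls.

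Among 8 measured accessory and neck genes 3 rose and 0 fell by edgeR, with a median change of 0.22, where 7.78% of all genes were called higher and 6.64% lower. With so few genes nothing particular to the list is read from this. Neither DESeq2 nor limma-voom called a lower gene in this list, and 0 were lower by edgeR before adjustment at 0.05. EHD1 and EHD4, which encode relatives of EHD2 that act in endosome recycling, rose by 0.34 (SE 0.075, adjusted p 0.0204 by edgeR) and 0.35 (SE 0.067, adjusted p 0.0119 by edgeR), higher in 3 of 3 lines. EHD1 averaged 359 ± 34.5 CPM with TGF-β1 and 285 ± 36.1 CPM in controls (SD, n = 3 each). PACSIN3, an F-BAR protein gene, rose by 0.41 (SE 0.092, adjusted p 0.0217 by edgeR), to 24.3 ± 2.87 CPM with TGF-β1, against 18.4 ± 2.95 CPM in controls (SD, n = 3 each). Its relative PACSIN2, which shapes the caveolar neck, averaged 140 ± 5.07 CPM with TGF-β1 and 153 ± 6.20 CPM in controls (SD, n = 3 each) and did not pass.

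None of 6 kinase and linker genes passed by edgeR, with 1 at an unadjusted p under 0.05 (ABL1) and 0 by DESeq2 or limma-voom. FLNA, which ties caveolae to actin, was at 4718 ± 533 CPM with TGF-β1 and 4748 ± 897 CPM in controls (SD, n = 3 each). None of 4 flotillin and stomatin genes passed by edgeR or DESeq2, with 1 at an unadjusted p under 0.05 and 1 by limma-voom, both FLOT1. Of 4 measured caveola-resident genes INSR, the insulin receptor gene, fell by 0.36 on the log2 scale (SE 0.073, adjusted p 0.0150 by edgeR), lower in 3 of 3 lines, at 39.2 ± 8.64 CPM with TGF-β1 and 50.05 ± 10.4 CPM in controls (SD, n = 3 each). Of 15 clathrin coat genes 2 rose and 0 fell by edgeR, which is 13.3%, close to the 14.4% of all genes. DESeq2 called 4 higher and 0 lower and limma-voom 3 higher and 1 lower, and before adjustment at 0.05 edgeR had 5 higher and 2 lower. CLTB, a clathrin light chain gene, rose by 0.32 (SE 0.073, adjusted p 0.0221 by edgeR), and EPN1, the epsin 1 gene, by 0.28 (SE 0.076, adjusted p 0.0401 by edgeR). PACSIN3 did not pass by DESeq2 (adjusted p 0.0531), and EPN1 did not pass by edgeR with upper-quartile scaling (adjusted p 0.0533) or library totals (adjusted p 0.0873). All 6 of these calls were also lost without MHCC97L, without MHCC97H and with no line as a block. Without MHCC97L the adjusted p by edgeR was 0.0986 for EHD1, 0.140 for EHD4, 0.144 for PACSIN3, 0.122 for INSR, 0.200 for CLTB and 0.278 for EPN1, and over all alternatives these adjusted p-values ran from 0.00132 to 0.711.

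**Figure D4:**
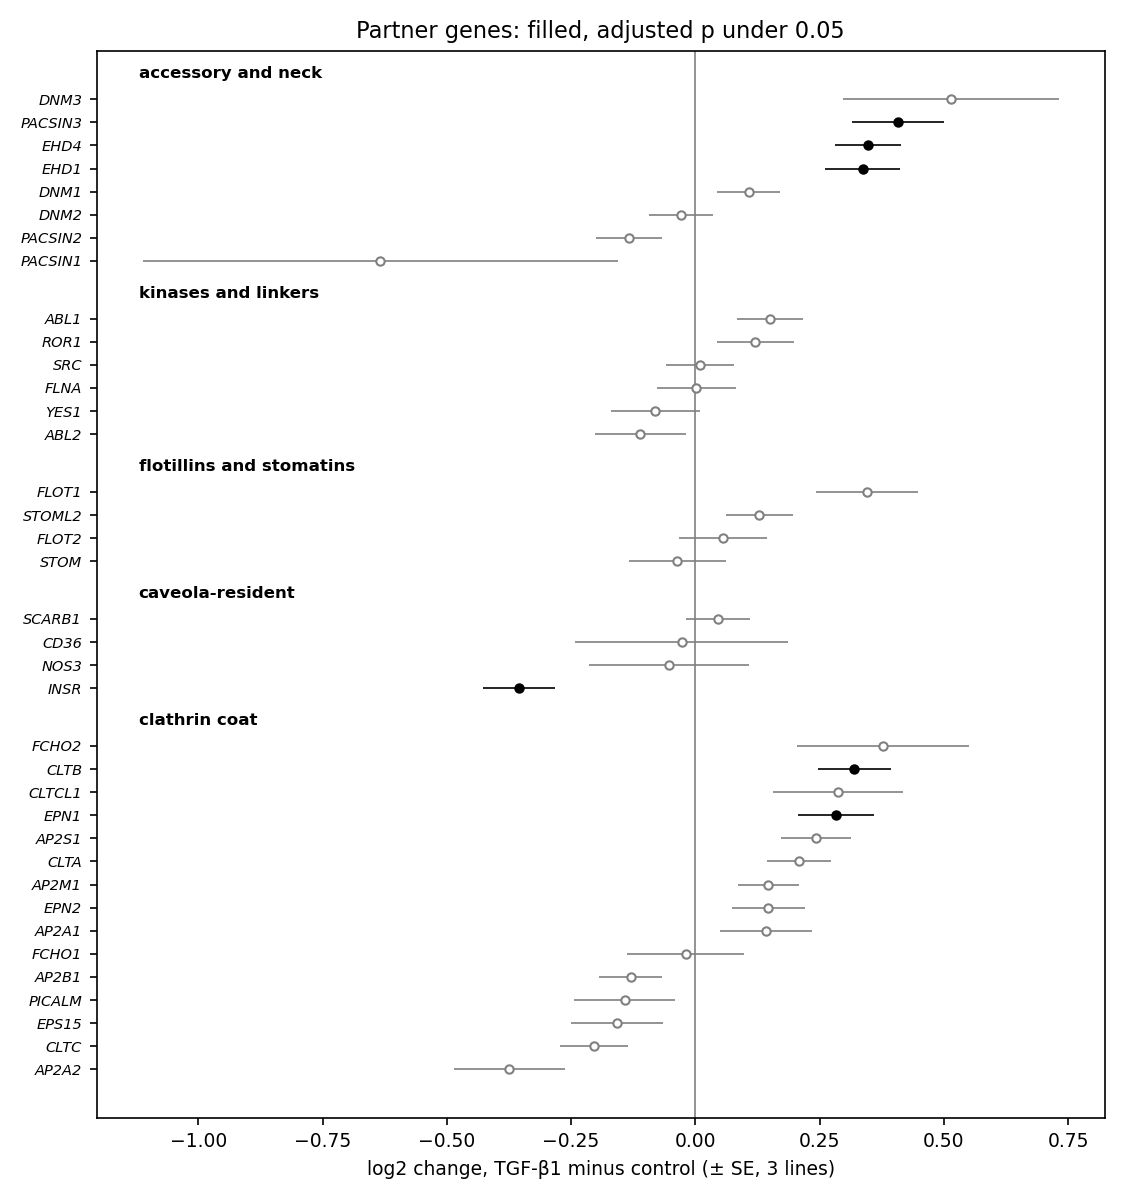
Log2 change with TGF-β1 relative to control, with the standard error of the edgeR fit over 3 lines, for the 37 partner genes that passed the filter on low counts, grouped by list. Filled points passed an adjusted p of 0.05: EHD1, EHD4, PACSIN3, CLTB and EPN1 to the right of 0 and INSR to the left.

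Position on the chromosome was also examined, a step added after the values were seen. CAV2 and CAV1 lie side by side between TES and MET, and these 4 genes did not all move one way. TES, an actin-associated scaffold gene, lies 28597 bp from the GENCODE start of CAV2 at 116287380. The RefSeq windows of CAV2 begin at 116499488 or later, farther from TES. TES rose by 0.27 (SE 0.062, adjusted p 0.0222 by edgeR). It was at 811 ± 80.1 CPM with TGF-β1, against 671 ± 56.7 CPM in controls (SD, n = 3 each). MET, the hepatocyte growth factor receptor gene 111206 bp from CAV1, fell by 0.34 on the log2 scale (SE 0.070, adjusted p 0.0161 by edgeR), to 5437 ± 662 CPM with TGF-β1, against 6838 ± 380 CPM in controls (SD, n = 3 each). NABP1, the nearest tested gene below CAVIN2 at 137643 bp, fell by 0.37 on the log2 scale (SE 0.075, adjusted p 0.0151 by edgeR). On the other side of CAVIN2 the nearest tested gene was SLC39A10, 3728722 bp away. Its change was -0.21 (SE 0.083, adjusted p 0.131 by edgeR), which did not pass. The nearest tested neighbours of CAVIN1, CAVIN3 and EHD2 had adjusted p-values by edgeR between 0.0736 (NOP53, beside EHD2) and 0.932 (FHIP1B, beside CAVIN3). The calls of MET and TES were lost without MHCC97L or MHCC97H, and that of NABP1 without MHCC97L. With no line as a block the adjusted p by edgeR was 0.368 for MET, 0.421 for TES and 0.218 for NABP1, and TES also lost its call with library totals (adjusted p 0.0513). Their adjusted p-values ran from 6.02e-05 to 0.421 over all alternatives.

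The genes whose pattern was most like each coat gene were taken as those with the smallest root mean square difference of log2 CPM over the 6 libraries, each gene centred on its own mean, among 13296 others with a symbol. For CAVIN2 these were VCAM1 (a difference of 0.284), LRRK2 (0.339) and PACSIN1 (0.399), against a root mean square variation of 1.24 in CAVIN2 itself. VCAM1, an adhesion receptor gene, was at 1.48 ± 1.11 CPM with TGF-β1 and 3.02 ± 1.81 CPM in controls (SD, n = 3 each), and LRRK2 and PACSIN1 were lower still. For CAVIN1 they were MAP1S (0.040), the read-through gene SYNJ2BP-COX16 (0.051) and TAX1BP3 (0.054), and for CAVIN3 JARID2 (0.053), TSSK6 (0.063) and GUK1 (0.067). For CAV1 they were PLGRKT (0.052), DTX4 (0.057) and GGT6 (0.083), for CAV2 DPH6 (0.031), RBM4 (0.034) and ZNF396 (0.034), and for EHD2 PRKAR2A (0.029), KCTD10 (0.029) and CNN2 (0.031). With a prior count of 0.5 in place of 2, PACSIN1, GGT6 and ZNF396 were no longer among the 3 nearest of their coat genes, and all the others stayed among the nearest 3. PACSIN1 had 0 to 13 counts a library with TGF-β1 and 3 to 17 in controls. No coat gene was among the 3 nearest of another. With so few points that share lines and conditions, likeness is a description only.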

How the data were processed

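The authors deposited expected counts per gene for each of the 6 libraries, with Ensembl IDs; 63.6% to 64.6% of the values in a library are whole. TopHat2 2.1.1, Cufflinks 2.2.1, Cuffdiff 1.3.0 and hg38 are named, without roles, in the submitters' processing notes, and which tool counted the reads, and whether by strand, was not given in the sources used here. Symbols came from the reference gene name table or GENCODE 29 (19574 of 22091 IDs matched), which also gave coordinates and exon lengths.

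Counts were rounded, filtered with filterByExpr (at least 3 libraries) and scaled by TMM (factors 0.971 to 1.029). They were fitted with edgeR 4.0.16 (quasi-likelihood, robust, line and treatment as terms) in R 4.3.3, with Benjamini-Hochberg adjustment at 0.05 over 14176 genes. The code was tested on simulated data. The pairing comes from the line; deviations of a line's libraries from their condition means correlated at 0.456 to 0.728 across genes. Changes within a line are log2 ratios of CPM with 95% exact binomial intervals. These cover counting error only, since there was 1 library for each line and condition. Reads carry no molecular identifiers, so copies of 1 molecule cannot be told apart and the intervals may be too narrow. A count of 0 allows up to 3 counts, 0.129 to 0.159 CPM. The labels do not say whether the libraries came from separate cultures. Log2 CPM for likeness used a prior count of 2. Alternatives used DESeq2 1.42.0, limma 3.58.1, other scalings, no filter, no line term, each line left out, longest transcripts and a prior count of 0.5.

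The coat genes, the partner and marker lists and the tests were chosen with earlier results of these data known. Named partner genes are those that passed, plus CAV3 and CAVIN4, and the 3 genes nearest each coat gene. FLNA, PACSIN2, ABL1, FLOT1, single markers and chromosomal neighbours were named after their values were seen.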

Additional observations from a re-analysis of the deposited data

Results flagged for a closer look

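CAV1 moved in opposite directions in lines under the same treatment. With TGF-β1 its log2 change was -0.11 in MHCC97L and -0.12 in MHCC97H, and 0.14 in HCCLM3, each with a counting interval that leaves out 0. The signs held with upper-quartile scaling (-0.14, -0.16 and 0.12) and with library totals (-0.15, -0.16 and 0.08). These intervals cover counting error only and say nothing of variation between cultures. With 1 library per line and condition the difference between lines was not tested.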

How the results depend on the processing

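The change of each coat gene after TGF-β1 was recomputed under 9 alternatives, and 53 of 54 values stayed within the spread between lines. The exception was CAV2, at 0.11 with library totals. The spread was the SD of the changes in the separate lines. Values from fits with a line left out could hardly leave that spread, and they are among the 54 values counted here. Leaving out each line in turn gave -1.55 to -1.27 for CAVIN2, 0.33 to 0.51 for CAVIN1, 0.40 to 0.64 for CAVIN3, 0.14 to 0.18 for CAV2, 0.11 to 0.17 for EHD2 and -0.12 to 0.02 for CAV1, which thus changed sign. None of 36 line changes flipped sign under another scaling, and scalings moved the median of all genes to -0.05 at most. The share of called genes that rose did depend on scaling: it was 54.0% with TMM, 44.2% with upper quartiles and 37.1% with library totals.

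Calls depended on the lines in the fit. Leaving out each line in turn gave 611 to 3973 genes called after TGF-β1 (423 to 2148 higher and 188 to 1825 lower), 0 to 14 partner genes and 1 to 3 coat genes. The largest counts came without HCCLM3, the smallest without MHCC97L, where 7 partner genes had an unadjusted p under 0.05 by edgeR. With no line as a block, 10 genes passed by edgeR (10 higher, 0 lower), with 0 partner and 0 coat genes. At an unadjusted p under 0.05 that fit had 783 lower, 7 partner and 2 coat genes. DESeq2, with the block, called 541 lower and limma-voom 1034. For differences between lines, the spread was the SD of the control difference and the treated difference. Values from 1 condition alone could hardly leave that spread, and they are among the 90 values counted here. Of 90 differences between lines 3 moved beyond their spread, all with library totals (CAV1 to -0.54 and CAV2 to -0.24 for MHCC97H minus MHCC97L, EHD2 to 0.20 for HCCLM3 minus MHCC97H). The cause of these shifts was not tested.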
